A study of Mus musculus with 6 samples.

Results

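The genes described are 10 that encode matricellular and elastic fibre glycoproteins: Postn, Tnc, Thbs1, Thbs2, Spp1, Fn1, Fbn1, Fbln2, Eln and Tgfbi. They were chosen by symbol and are 10 of the 24940 genes of the deposited exon count table, each with 1 RefSeq transcript and 1 genomic copy. All 10 are in the table, and 8 had enough counts to be tested. Spp1 and Eln did not.

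Polyadenylated RNA came from primary hepatic stellate cells, the retinoid-storing pericytes of the liver sinusoid, of wild-type female C57BL/6JBomTac mice. Both groups of 3 libraries were at day 2 after isolation when the first agent was added. DMSO+VIP received the vehicle DMSO (1:1000) for 3 h and then 500 nM vasoactive intestinal peptide (VIP) for 3 h more. OCA+VIP received 10 µM obeticholic acid (OCA), an agonist of the bile acid receptor FXR, for 3 h and then the same VIP. DMSO is listed at 1:1000 for both groups. VIP was thus in every library, and the comparison is of OCA with vehicle before VIP. Nothing in the labels ties a library to an animal or a culture of its own, so p-values here reflect spread among libraries that may be technical. Libraries are numbered as the columns of the table are.

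Matricellular proteins are secreted into the matrix and tune how cells adhere, migrate and respond to growth factors, without forming the main load-bearing fibres. Elastic fibres consist of an elastin core laid down on a scaffold of fibrillin microfibrils, with fibulins at the interface. In injured liver, stellate cells that turn into myofibroblasts are a main source of fibronectin, periostin, tenascin C and thrombospondins. Osteopontin, the product of Spp1, is also made by cholangiocytes and macrophages, and elastin and fibulin 2 are typical of portal fibroblasts.

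With OCA before VIP, Fbln2, Postn, Fbn1, Fn1, Thbs2 and Tnc were lower, Tgfbi was higher, and Thbs1, the most abundant of the 10 per length, did not pass the test. The falls ran from 1.72-fold (Tnc) to 4.12-fold (Fbln2), and the rise of Tgfbi was 2.31-fold. Of the 8 tested genes, 6 were called lower, 1 was called higher and 1 was not called by edgeR's quasi-likelihood test at a Benjamini-Hochberg adjusted p under 0.05. Across the 11286 tested genes, 6.04% were called lower and 5.72% higher. The median log2 fold change was -1.12 over the 8 genes and 0.00 over all tested genes. The 10 genes were proposed with earlier results of these data known, so these counts are a description.

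**Figure D1:**
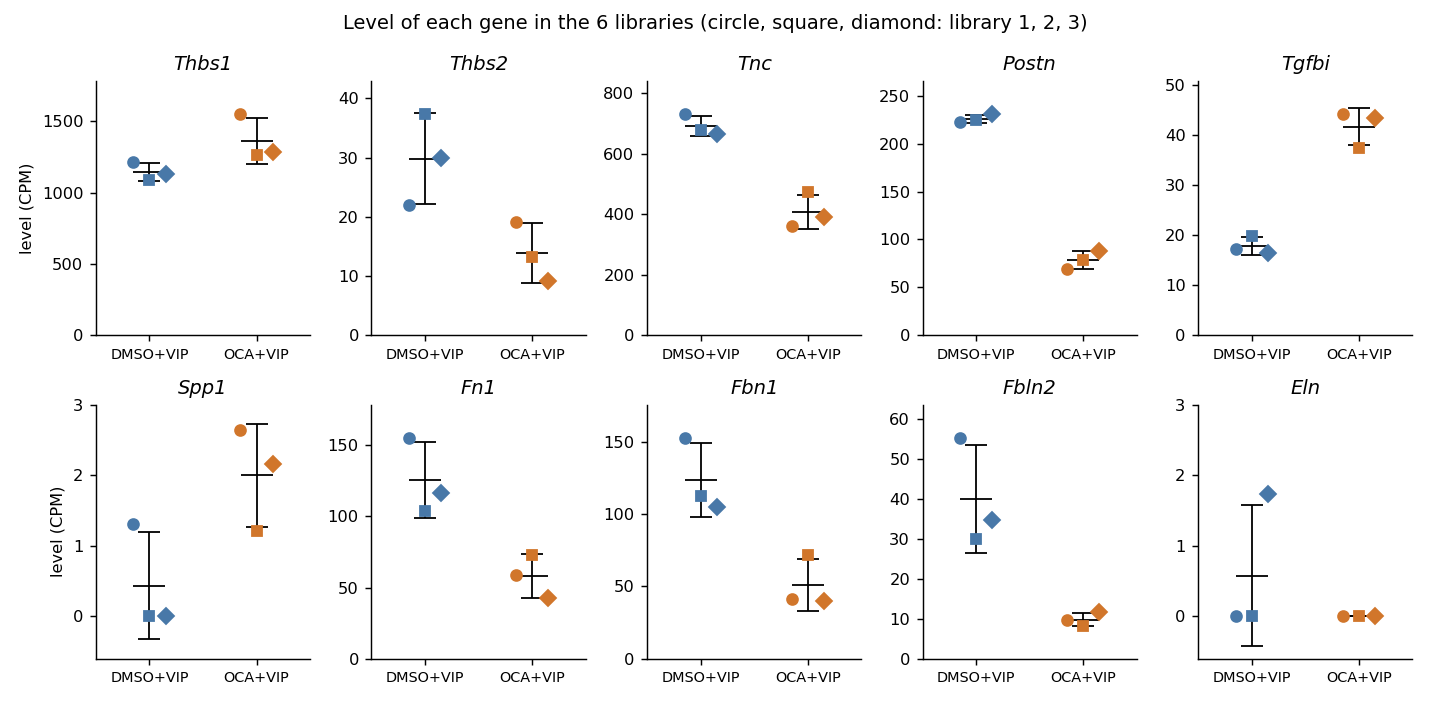
Level of each of the 10 genes in CPM (linear y axes that differ between panels) in the 3 DMSO+VIP libraries (blue) and the 3 OCA+VIP libraries (orange). Bars give the mean ± SD (n = 3). The groups do not overlap for the 8 tested genes, and Spp1 and Eln stay under 3 CPM.

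Levels are given as CPM, counts per 1000000 counts of the library. The libraries held 2.84e+06 to 9.95e+06 counts, of which OCA+VIP library 2 had the most. Many low values of the table lie near multiples of 6, though values between them, such as 3, also occur. The limit for a gene at 0 was therefore set at 3 steps of 6, or 18 counts over a group. This is 1.61 CPM for DMSO+VIP and 0.887 CPM for OCA+VIP. The cells carried stellate markers: all 12 of that list were tested, with Reln the most abundant. Their sum ran from 670 to 901 CPM across vehicle libraries and from 752 to 881 CPM across OCA+VIP libraries. Lrat (3.91 and 8.16 CPM on average with DMSO+VIP and OCA+VIP) and Lum (2.89 and 5.73 CPM) were scarce. Hepatocyte markers were present as well and were higher with OCA, at 73.7 to 92.6 CPM against 257 to 434 CPM, with 8 of 13 tested members called higher, 0 called lower and Cps1 at 0 throughout. Of 3 tested liver endothelial markers, edgeR called 1 lower (Egfl7, 25.5 and 10.8 CPM on average with DMSO+VIP and OCA+VIP). The 1 tested lymphocyte marker, Cd79a, was called higher (0 and 6.03 CPM). In bulk RNA, fewer cells of a type cannot be told apart from less RNA per cell.

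Postn and Tgfbi encode the secreted fasciclin-domain proteins periostin and transforming growth factor beta-induced protein, which are paralogs, and they changed in opposite directions. Postn (NM_001198766, mm10 chromosome 3, 54361107 to 54391041, 21 exons) stood at 223, 225 and 231 CPM in DMSO+VIP libraries 1 to 3 and at 69.4, 78.1 and 87.5 CPM in OCA+VIP libraries 1 to 3. The vehicle libraries were nearly level, and every OCA+VIP value lay far below them. On the log2 scale Postn changed by -1.55 (SE 0.13), with an edgeR adjusted p of 6.3e-08, the smallest of the 8 genes. Tgfbi (NM_009369, chromosome 13, 56609586 to 56639359, 17 exons) had 17.3, 19.9 and 16.5 CPM in DMSO+VIP libraries 1 to 3. With OCA+VIP it had 44.2, 37.4 and 43.5 CPM in libraries 1 to 3. All 3 OCA+VIP values were above all 3 vehicle values, and Tgfbi rose by 1.21 on the log2 scale (SE 0.23, adjusted p = 0.0014 by edgeR). The vehicle level of Tgfbi rests on 197 counts over 3 libraries, which is few given the steps of 6.

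The ratio of Postn to Tgfbi within a library needs no scaling between libraries. The log2 ratio of their counts, each plus 6, was 3.59, 3.36 and 3.68 in DMSO+VIP libraries 1 to 3 and 0.63, 1.05 and 0.99 in OCA+VIP libraries 1 to 3. The difference in means was -2.66, and no OCA+VIP library came near the vehicle libraries. An exact two-sided permutation test over 3 against 3 libraries gave p = 0.10, the smallest it can give, and 0.20 adjusted over the 4 ratios examined. Tgfbi is also abundant in macrophages. Of 15 macrophage and Kupffer cell markers, Ptprc, C1qa, C1qb, C1qc, Vsig4 and Timd4 were at 0 in all libraries, and 0 of the 3 tested members were called by edgeR. Their summed level was 15.3 to 54.6 CPM in the vehicle libraries and 33.6 to 50.5 CPM in the OCA+VIP libraries, led by Cd68 (20.5 and 30.6 CPM on average). The part of such cells, or of the hepatocyte RNA given above, in the level of Tgfbi was not tested.

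Start-site windows from RefSeq (GRCm38.p6, 250 bases before to 50 after the start) were found for 7 of the 10 genes, each at the start the deposited table uses. Thbs1, Fn1 and Eln had none. Those of Postn, of Fbln2, the gene of largest fall, and of Tgfbi, the gene that rose, are shown to set the sequences at the starts of genes that moved apart side by side. They lie at chr3:54360857-54361156, chr6:91212514-91212813 and chr13:56609336-56609635, all on the + strand. Capitals mark every match, on either strand, to the motifs searched.
Postn: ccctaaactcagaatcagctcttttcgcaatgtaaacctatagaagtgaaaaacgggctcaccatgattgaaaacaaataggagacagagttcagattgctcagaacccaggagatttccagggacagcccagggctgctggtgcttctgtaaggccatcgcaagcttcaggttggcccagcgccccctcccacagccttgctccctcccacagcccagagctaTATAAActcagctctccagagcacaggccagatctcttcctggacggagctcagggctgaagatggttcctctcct
Fbln2: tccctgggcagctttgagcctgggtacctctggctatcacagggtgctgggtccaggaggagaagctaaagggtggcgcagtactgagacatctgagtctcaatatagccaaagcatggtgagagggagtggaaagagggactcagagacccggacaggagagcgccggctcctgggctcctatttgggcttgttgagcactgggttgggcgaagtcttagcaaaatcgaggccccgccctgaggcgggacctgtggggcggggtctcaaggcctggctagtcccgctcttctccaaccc
Tgfbi: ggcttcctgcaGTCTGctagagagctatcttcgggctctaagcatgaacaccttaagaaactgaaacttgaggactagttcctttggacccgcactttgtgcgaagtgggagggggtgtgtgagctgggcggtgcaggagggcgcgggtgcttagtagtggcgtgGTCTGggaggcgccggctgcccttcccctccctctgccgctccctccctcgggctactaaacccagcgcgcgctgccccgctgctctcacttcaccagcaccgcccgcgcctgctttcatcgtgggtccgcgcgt

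The motifs searched were AP-1 (TGANTCA), TEAD (GGAATG), SMAD (CAGAC), the CRE core (TGACG), the TATA box (TATAAA), the SRF CArG box and the FXR inverted repeat. The FXR inverted repeat was searched without its last base. Of the motifs searched, CAGAC and TATAAA matched, at places that do not overlap. TATAAA was in 4 of the 7 windows, those of Postn, Tnc, Thbs2 and Spp1, and in 13.6% of 32851 windows of this length. In Postn it began 26 bases before the start, in Tnc and Thbs2 126 bases before it, and in Spp1 211 bases before it. The match in Thbs2 was on the strand opposite to the gene. CAGAC was in 4 of 7, with 2 matches each in Tgfbi, Thbs2 and Spp1 and 1 in Tnc, against 49.6% of all windows. The windows of Fbln2 and Fbn1 held none of the 7 motifs. The other motifs occur in 7.81% (AP-1), 14.7% (TEAD), 20.8% (CRE core), 1.63% (CArG box) and 0.027% (FXR inverted repeat) of all windows. Matching letters are a description of these windows only.

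The thrombospondins Thbs1 and Thbs2 encode trimeric calcium-binding glycoproteins that bind CD36 and CD47 and, for thrombospondin 1, activate latent TGF-beta. Thbs1 (NM_011580, chromosome 2, 118111876 to 118127133, 22 exons) had 1211, 1088 and 1134 CPM in DMSO+VIP libraries 1 to 3 and 1551, 1261 and 1282 CPM in OCA+VIP libraries 1 to 3. The groups did not overlap, but the lowest OCA+VIP value lay close to the highest vehicle value, and edgeR did not call the difference (0.24 on the log2 scale, SE 0.14, adjusted p = 0.27). Its 95% interval was -0.04 to 0.53, which includes both no change and a rise. The call depended on OCA+VIP library 2, without which the log2 fold change was 0.33 (edgeR adjusted p = 0.021), while without OCA+VIP library 1 it was 0.10 (edgeR adjusted p = 0.69).

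Thbs2 (NM_011581, chromosome 17, 14665500 to 14694262, 22 exons) was much scarcer, with 22.0, 37.3 and 30.0 CPM in DMSO+VIP libraries 1 to 3 and 19.2, 13.2 and 9.13 CPM in OCA+VIP libraries 1 to 3. Vehicle library 1 and OCA+VIP library 1 were close to each other, and the groups did not overlap. Thbs2 was called lower at -1.12 on the log2 scale (SE 0.32, adjusted p = 0.024 by edgeR). The call was lost without DMSO+VIP library 2 or 3 (edgeR adjusted p = 0.11 and 0.064) and without OCA+VIP library 2 or 3 (0.056 and 0.13). The log2 ratio of Thbs1 to Thbs2 was 5.70, 4.79 and 5.17 in DMSO+VIP libraries 1 to 3 and 6.24, 6.52 and 6.98 in OCA+VIP libraries 1 to 3, a difference in means of 1.36. These values did not overlap, and the exact permutation test gave p = 0.10, 0.20 after adjustment. Of their receptors, Cd47 was at 79.2 ± 2.84 and 66.5 ± 5.43 CPM (SD, n = 3) and Cd36 at 3.60 ± 4.17 and 5.44 ± 3.63 CPM, neither past the test (edgeR adjusted p = 0.27 and 0.74).

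**Figure D2:**
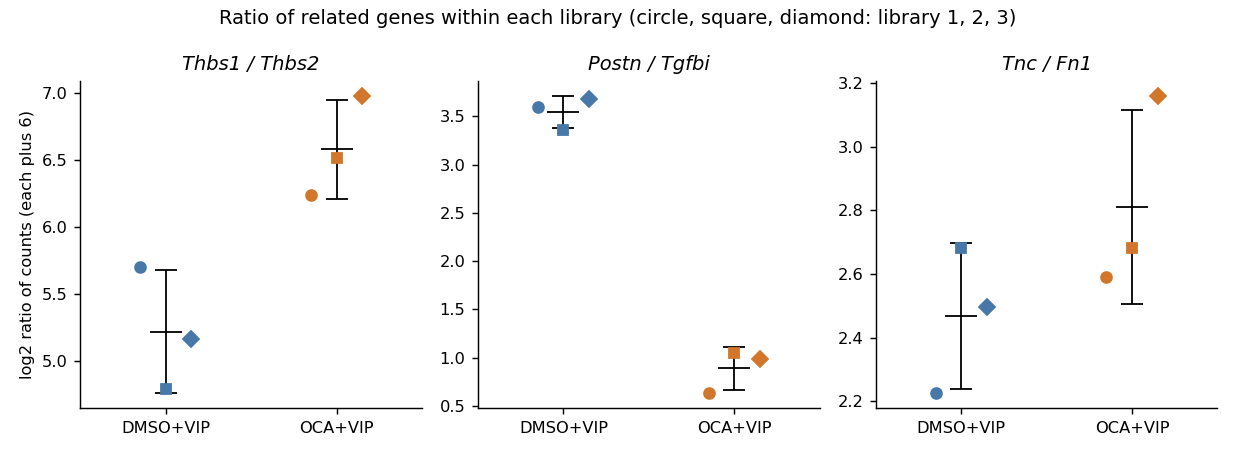
Log2 ratio of the counts of 2 related genes within each library (each count plus 6, y axes that do not start at 0), for Thbs1 over Thbs2, Postn over Tgfbi and Tnc over Fn1. Bars give the mean ± SD (n = 3). The groups are apart for the thrombospondins (difference 1.36) and for Postn over Tgfbi (difference -2.66), and they overlap for Tnc over Fn1.

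Tnc encodes tenascin C, an anti-adhesive glycoprotein that binds fibronectin, and Fn1 encodes fibronectin, the provisional matrix on which collagen and fibrillin are assembled. Tnc (NM_011607, chromosome 4, 63959785 to 64047015, 26 exons) had 731, 680 and 666 CPM in DMSO+VIP libraries 1 to 3 and 362, 472 and 389 CPM in OCA+VIP libraries 1 to 3. The 3 OCA+VIP libraries were all lower, and library 2 was the highest of them. Tnc fell by 0.78 on the log2 scale (SE 0.12), with an edgeR adjusted p of 1.6e-04. Fn1 (NM_001276408, chromosome 1, 71585473 to 71653234, 45 exons) had 155, 104 and 117 CPM in DMSO+VIP libraries 1 to 3 and 58.9, 73.0 and 42.6 CPM in OCA+VIP libraries 1 to 3. Again no OCA+VIP library reached the vehicle range (log2 fold change -1.13, SE 0.18, edgeR adjusted p = 1.6e-04). The log2 ratio of Tnc to Fn1 was 2.47 ± 0.23 with DMSO+VIP and 2.81 ± 0.30 with OCA+VIP (SD, n = 3). The groups overlapped, and the difference of 0.34 had an exact permutation p of 0.30, adjusted 0.40. Hepatocytes also make much fibronectin, and in these libraries Fn1 was lower in the group whose summed hepatocyte markers were higher. The part of hepatocyte RNA in the level of Fn1 was not tested.

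Fbn1 and Fbln2 encode fibrillin 1, the backbone of microfibrils, and fibulin 2, a binding partner of fibrillin and tropoelastin. Fbn1 (NM_007993, chromosome 2, 125300594 to 125506438, 66 exons) had 153, 113 and 105 CPM in DMSO+VIP libraries 1 to 3. With OCA+VIP it had 41.0, 71.4 and 40.1 CPM in libraries 1 to 3. OCA+VIP library 2 stood above the other 2 of its group and below every vehicle library, and Fbn1 fell by 1.29 on the log2 scale (SE 0.19, adjusted p = 7.3e-05 by edgeR). Fbln2 (NM_007992, chromosome 6, 91212764 to 91272540, 18 exons) had 55.2, 29.9 and 34.7 CPM in DMSO+VIP libraries 1 to 3 and 9.59, 8.24 and 11.6 CPM in OCA+VIP libraries 1 to 3. Vehicle library 1 was the highest, and the OCA+VIP libraries were close to one another. The log2 fold change of Fbln2, -2.04 (SE 0.29, edgeR adjusted p = 5.7e-05), was the most negative of the 8. Its 95% interval was -2.64 to -1.44. The OCA+VIP level of Fbln2 rests on 193 counts over 3 libraries, which is few given the steps of 6.

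Eln (NM_007925, chromosome 5, 134702595 to 134747323, 37 exons), which encodes tropoelastin, had 6.5 counts in DMSO+VIP library 3 and 0 counts in the other 5 libraries. Both groups were under the floor of 18 counts, so no fold is given and a difference was not detectable at this depth. Of 10 portal fibroblast markers, Thy1 and Pi16 were at 0 in all libraries, and the list summed to 7.87 to 13.4 CPM in vehicle libraries and 10.1 to 11.4 CPM in OCA+VIP libraries. Spp1 (NM_001204203, chromosome 5, 104435111 to 104441053, 8 exons), which encodes osteopontin, had 6, 0 and 0 counts in DMSO+VIP libraries 1 to 3 and 12, 12 and 12.5 counts in OCA+VIP libraries 1 to 3. In CPM these were 1.31, 0 and 0 against 2.65, 1.21 and 2.15, and the groups overlapped. The vehicle group was under the floor, and both genes missed the count filter. Fitted without the filter, Spp1 and Eln had edgeR adjusted p of 0.56 and 0.40. Of 8 cholangiocyte markers, Krt7, Krt18, Cldn4 and Cldn7 were at 0, and the sum, led by Krt19, was 6.16 to 14.9 CPM in vehicle libraries and 14.7 to 20.4 CPM in OCA+VIP libraries. The part of such cells in the counts of Spp1 was not tested.

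**Figure D3:**
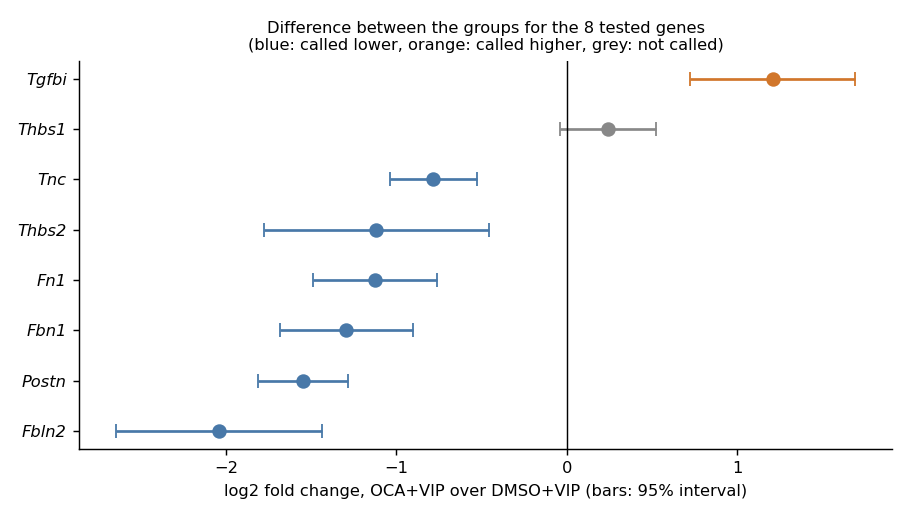
Log2 fold change of OCA+VIP over DMSO+VIP (x axis) for the 8 tested genes (y axis), with the 95% interval from the edgeR fit. The intervals of the 6 genes called lower lie below 0, that of Tgfbi lies above 0 (0.72 to 1.70) and that of Thbs1 includes 0.

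Levels were set in order per length, as CPM per kilobase of exon (RPKM). With DMSO+VIP, Thbs1 led at 196 ± 10.7 RPKM, followed by Tnc at 97.9 ± 4.81 and Postn at 72.8 ± 1.35 RPKM (SD, n = 3). The libraries of these 3 genes did not overlap with one another. Then came Fn1 at 15.5 ± 3.28, Fbn1 at 12.6 ± 2.60, Fbln2 at 8.96 ± 3.01, Tgfbi at 6.63 ± 0.67 and Thbs2 at 5.05 ± 1.30 RPKM, and each of these neighbours overlapped with the next. Spp1 and Eln were last, at 0.309 ± 0.536 and 0.152 ± 0.264 RPKM.

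With OCA+VIP the first 3 places were the same, at 234 ± 27.8 RPKM for Thbs1, 57.6 ± 8.12 for Tnc and 25.2 ± 2.92 for Postn. Tgfbi, at 15.5 ± 1.38 RPKM, stood in place 4 and overlapped with neither Postn above it nor Fn1 below it. Fn1 had 7.18 ± 1.87 RPKM and Fbn1 5.17 ± 1.81 RPKM, with overlapping libraries. Thbs2 (2.34 ± 0.86), Fbln2 (2.20 ± 0.38) and Spp1 (1.42 ± 0.52 RPKM) followed, each overlapping with the next, and Eln was at 0. Fbln2 thus went from place 6 to place 8. Among the 11286 tested genes ranked by mean RPKM, Thbs1 was number 375 with DMSO+VIP and number 266 with OCA+VIP, Postn went from 1335 to 3925, and Tgfbi from 7765 to 5364.

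The make-up of the set shifted toward Thbs1. Its share of the summed RPKM of the 10 genes was 47.1%, 46.7% and 47.8% in DMSO+VIP libraries 1 to 3 and 71.0%, 63.0% and 65.8% in OCA+VIP libraries 1 to 3. The share of Postn was 17.5 ± 1.09% with DMSO+VIP and 7.23 ± 1.24% with OCA+VIP (SD, n = 3). Tgfbi held 1.60 ± 0.22% and 4.42 ± 0.39%. A share rises when other genes of the set fall, and the level of Thbs1 itself did not pass the test. The other 9 genes together went from 1256 ± 87.9 CPM in vehicle libraries to 662 ± 80.4 CPM with OCA.

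**Figure D4:**
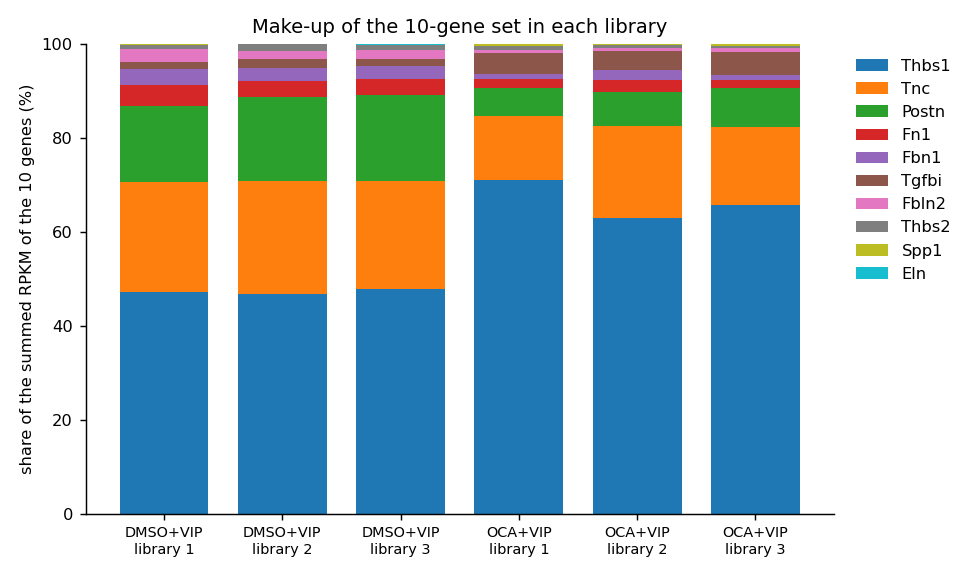
Stacked share of each gene in the summed RPKM of the 10 genes (y axis, percent) in each of the 6 libraries (x axis). Thbs1 takes 46.7% to 47.8% in the DMSO+VIP libraries and 63.0% to 71.0% in the OCA+VIP libraries.

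Among the tested genes, 13.9% had groups that did not overlap in CPM with the OCA+VIP side lower, and 16.8% with it higher. In the set this was so for the 6 genes called lower and, on the higher side, for Thbs1 and Tgfbi. The 3 longest transcripts of the set, those of Fbn1 (9832 bases), Fn1 (8105) and Tnc (7072), stood above their group mean in OCA+VIP library 2, by 0.47, 0.28 and 0.14 on the log2 scale. In that library the 1289 tested genes over 6000 bases were above the group mean by a median of 0.14, and the 3244 genes under 2000 bases were at -0.08. DMSO+VIP library 1 went the same way, with medians of 0.08 and -0.05 for these length classes. There Fbn1, Fn1 and Tnc stood 0.31, 0.31 and 0.06 above their group mean. Between the groups, the median log2 fold change of the genes over 6000 bases was -0.03. Of these genes, edgeR called 8.07% lower and 6.05% higher, against 5.61% and 4.25% of the genes under 2000 bases. When each library's trend with length was removed, an alternative chosen after the data were seen, the log2 fold changes were -1.25 for Fbn1, -1.09 for Fn1 and -0.75 for Tnc, and all 3 were called. The deposited table gives 1 transcript per gene, so splice forms of Fn1 and Tnc were not separated.

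Over the 6 libraries, the genes whose log2 CPM followed Fbln2 most closely among 8778 genes of at least 10 CPM were Gja4 (Pearson r = 0.996), Tnfrsf11b (0.995) and Csf1 (0.992). Their log2 fold changes were -1.83, -1.17 and -0.62. For Tgfbi they were Gbe1, Ppp1r7 and Osgin1 (r = 0.998, 0.998 and 0.997), with log2 fold changes of 0.21, 0.43 and 1.43. The points of these correlations are the same 6 libraries in 2 groups, so any gene with a clean group difference scores high, and they are a description only.

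Of 16 other matricellular genes, 8 were tested, and edgeR called 2 lower, 2 higher and 4 neither way, with a median log2 fold change of -0.30. Over all tested genes, 6.04% were called lower and 5.72% higher. Sparc, encoding the collagen-binding glycoprotein SPARC, fell from 854 ± 34.4 to 405 ± 24.0 CPM (SD, n = 3; log2 fold change -1.09, SE 0.12, edgeR adjusted p = 3.0e-06). Tnxb, encoding the tenascin family member tenascin X, also fell (-1.38, SE 0.27, edgeR adjusted p = 0.0016). Cyr61, encoding the integrin ligand CCN1, rose from 324 ± 12.6 to 800 ± 172 CPM (log2 fold change 1.30), and Ecm1, encoding extracellular matrix protein 1, rose from 135 ± 15.5 to 249 ± 39.4 CPM (0.87). Wisp1, encoding CCN4, was not called (-1.07, edgeR adjusted p = 0.053), though its groups did not overlap. It was called lower by DESeq2 (adjusted p = 0.0067), by limma-voom (0.027), and by edgeR with upper-quartile scaling, counts divided by 6 or length trends removed (0.022 to 0.049). Thbs4, Tnn and Tnr had no counts.

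Of 16 other elastic fibre and microfibril genes, 9 were tested. Of these, edgeR called 1 lower and 0 higher, against 6.04% and 5.72% of all tested genes. The 1 called was Lox, encoding lysyl oxidase, the crosslinking enzyme of elastin and collagen. It went from 56.7 ± 16.7 to 29.7 ± 10.1 CPM (SD, n = 3; log2 fold change -0.95, SE 0.24, edgeR adjusted p = 0.012), with overlapping groups. Its call was lost without DMSO+VIP library 1 or 3 (edgeR adjusted p = 0.062 and 0.098) and without OCA+VIP library 1 (0.084). None rose by edgeR, DESeq2 or limma-voom, and 0 were higher at an unadjusted p under 0.05. The median was -0.45, and the members of next smallest p, Ltbp4, Fbln5 and Efemp1, had log2 fold changes of -0.45, -1.09 and -0.55 that did not pass the test (edgeR adjusted p = 0.16, 0.21 and 0.24). Ltbp4 encodes a latent TGF-beta binding protein, and Fbln5 and Efemp1 encode fibulins. Fbn2 and Mfap5 had no counts.

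Among 13 receptors for these glycoproteins, 10 were tested, with a median of -0.08. Of these, edgeR called 1 lower and 1 higher, against 6.04% and 5.72% of all tested genes. Itga9, encoding the integrin subunit that pairs with beta 1 to bind tenascin C and osteopontin, fell from 164 ± 10.01 to 73.9 ± 17.0 CPM (SD, n = 3; log2 fold change -1.17, SE 0.14, edgeR adjusted p = 1.0e-05). Sdc4, encoding syndecan 4, a co-receptor for fibronectin, rose from 53.4 ± 10.3 to 107 ± 13.9 CPM (0.98, SE 0.17, edgeR adjusted p = 6.0e-04). The other 8 were not called, among them Itgb5 (-0.59, edgeR adjusted p = 0.051), an integrin subunit at the edge of the threshold. Itgb5 was called lower by DESeq2 (adjusted p = 0.013) and by edgeR with RLE or upper-quartile scaling, no filter, counts divided by 6 or length trends removed (0.029 to 0.0496), as well as without DMSO+VIP library 3 (0.011). Of 14 TGF-beta ligands, receptors and early targets, all were tested and 0 were called by limma-voom or by edgeR with TMM scaling and the count filter. At an unadjusted p under 0.05, edgeR had 2 higher and 1 lower, and DESeq2 called Smad7 and Smad4 higher (0.35 and 0.30) and Tgfb3 lower (-1.08). With edgeR the adjusted p of Tgfb3, Smad7, Smad4 and Tgfbr1 were 0.0505, 0.066, 0.13 and 0.23. Tgfb3 was called lower by edgeR with RLE or upper-quartile scaling, no filter, counts divided by 6 or length trends removed (adjusted p = 0.034 to 0.049). Smad7 was called higher by edgeR with column totals alone (0.029) or no filter (0.049). Leaving out 1 library gave edgeR calls for Tgfb3 (without DMSO+VIP library 3, adjusted p = 0.043), Smad7 (without OCA+VIP library 2, 0.0070) and Tgfbr1 (without DMSO+VIP library 2, 0.010). The median of that list was 0.12. With 6.04% of all tested genes called lower and 5.72% higher, few calls would be expected among 14 genes.

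**Figure D5:**
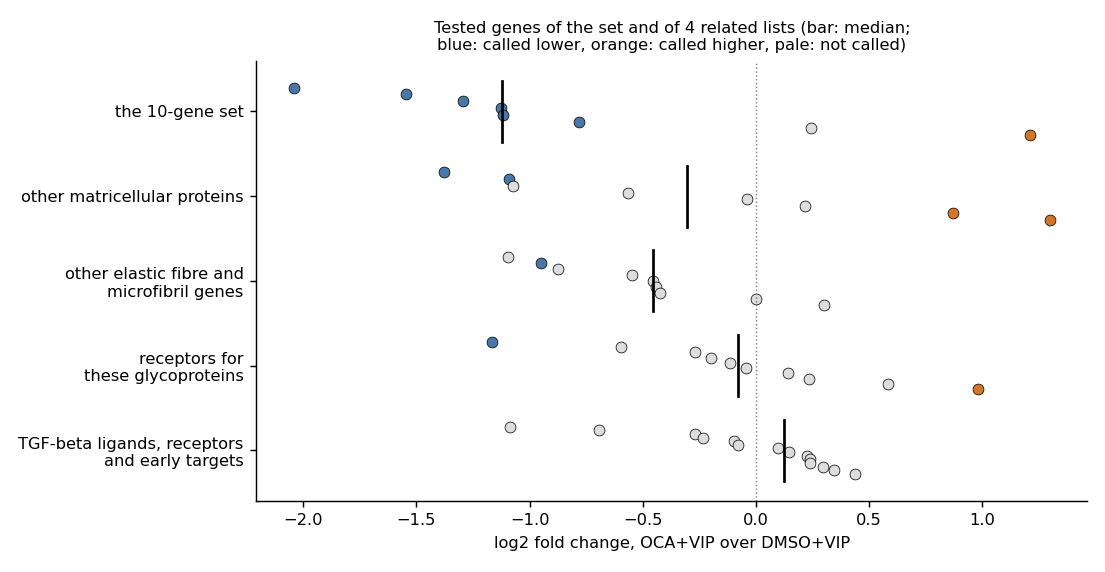
Log2 fold change of OCA+VIP over DMSO+VIP (x axis) for each tested gene of the set and of 4 related lists (y axis), with the median as a bar. The medians are -1.12 for the set, -0.30 for other matricellular genes, -0.45 for other elastic fibre genes, -0.08 for receptors and 0.12 for the TGF-beta list.

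Of 7 myofibroblast markers, edgeR called 4 lower (Acta2, Tagln, Col1a1 and Lox) and 0 higher. The other 3 were not called: Col3a1 had a log2 fold change of 1.49 (edgeR adjusted p = 0.089), Timp1 -0.08 (0.90) and Col1a2 -0.34 (0.50). Tagln made up most of the sum of the list, at 520 ± 20.3 and 355 ± 60.7 CPM (SD, n = 3), and that sum ran from 711 to 780 CPM in vehicle libraries and from 415 to 534 CPM in OCA+VIP libraries. Among stellate markers, 4 of 12 were called higher (Pdgfra, Ngfr, Colec11 and Dcn) and 2 lower (Des and Hgf). Over all tested genes, 6.04% were called lower and 5.72% higher. None of these 7 myofibroblast genes is in the set, and their part in the falls of the set was not tested.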

How the data were processed

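The members and gene lists were chosen with earlier results of these data known. The deposited table holds expected counts per gene over exons, in steps of 0.5 and not adjusted for library size, per the file headers; its layout is that of HOMER. The submitters' processing notes name mm10, STAR, HOMER and DESeq2, with no role or version. Use of strand in counting is not given in the sources used here. Columns were assigned to groups by name, and no column number was tied to a lettered title.

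Values were rounded to whole numbers and fitted with edgeR 4.0.16 in R 4.3.3: filterByExpr by group (minimum count 10, minimum total 15), TMM, and the quasi-likelihood F test between the groups. Adjusted p-values (Benjamini-Hochberg, over the 11286 tested genes) were called under 0.05. The standard error is the log2 fold change divided by the root of F. CPM and RPKM use column totals and the deposited exon lengths. Ratios within libraries used counts plus 6 and an exact two-sided permutation test. The fit was also run on simulated whole-number counts with a common dispersion. These lack the steps of 6, so they do not test the fit for genes of low counts.

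Named genes are the 10 members, the 4 tested genes of smallest p with at least 1 CPM in each list, the 3 genes closest to the members of most negative and most positive change, and the leading and absent markers. Cd36, Wisp1 and list genes at 0 were named after their values were seen, as were Lrat, Lum, the myofibroblast markers and the called stellate markers. Alternatives were RLE, upper-quartile and column-total scaling, 2 filters, DESeq2 1.42.0, limma-voom (limma 3.58.1), a replicate block, counts divided by 6, thresholds of 0.01 and 0.1, other added counts in ratios and leaving out each library. Removing length trends was added after the data were seen. Exon counts of transcripts and overlaps came from GENCODE (GRCm38). Opposite-strand genes cover 2.48% to 3.94% of the exon bases of Tnc, Thbs1, Fn1 and Eln and 4.03% of Fbn1, and a same-strand gene 5.39% of Spp1. Protein sequences were not used here. Tables and figures used Python 3.11.15, pandas 2.3.3 and matplotlib 3.10.9.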

Additional observations from a re-analysis of the deposited data

How the results depend on the processing

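Postn, Tnc, Fn1, Fbn1, Fbln2 and Tgfbi kept their direction and their call in all 18 alternative settings, with log2 fold changes of -1.64 to -1.50, -0.86 to -0.74, -1.29 to -0.95, -1.59 to -1.12, -2.20 to -1.74 and 1.13 to 1.32. The thresholds of 0.01 and 0.1 are among the 18 and reuse the main fit, so only the call could differ there. Thbs2 was lower in all 18 (-1.45 to -0.89) and lost its call in 5: 4 fits with 1 library left out, and the threshold of 0.01 (edgeR adjusted p = 0.024). Thbs1 was higher in all 18 (0.10 to 0.33) and gained a call in 1, so that members called higher were 1 to 2 on leaving out a library; the cause was not tested. Leaving out a library gave 5 to 6 members called lower. The count of all genes called was 2245 with DESeq2 and 648 at a threshold of 0.01, and 737 to 1478 on leaving out a library, the lowest without OCA+VIP library 1; it was 877 without DMSO+VIP library 1 and 751 without OCA+VIP library 3, with fewer samples in each. With the replicate block, 1118 genes, 6 members lower and 1 higher were called. Deviations of same-numbered columns from their group means correlated at -0.04, -0.05 and 0.03, which gives no sign of pairing by number. Such values cannot exclude a shared source. By this measure DMSO+VIP libraries 1, 2 and 3 were closest to OCA+VIP libraries 2, 1 and 3, and pairing in that order was not tested. The log2 ratio of Eln to Fbn1 differed by 0.14 between groups, turned to -0.47 with an added count of 1, and ran from -0.36 to 0.72 on leaving out a library, since Eln is under the floor; the other 3 ratios kept their direction. In the related lists, Wisp1, Itgb5, Tgfb3, Smad7, Smad4 and Tgfbr1 gained a call and Lox lost its call in at least 1 alternative. Depth limits Spp1, Eln, the vehicle level of Tgfbi and the OCA+VIP level of Fbln2. Thbs2 rests on 318.5 counts with DMSO+VIP and 271 with OCA+VIP.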
